A study of Mus musculus with 15 samples.

Results

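The complement system was followed through 31 of its genes on mouse 1-colour arrays of hepatocytes in culture, out of 27343 genes named on the array. The members were taken by gene name and placed in 7 arms: 4 genes of the classical pathway, 6 of the lectin pathway, 4 for C3 and the alternative pathway, 7 of the terminal pathway, 5 soluble regulators, 3 membrane regulators and 2 receptors. All 31 had at least 1 probe. The 7 mHep arrays came from liver cells of 3 mice kept in culture for 21 days, with 3 arrays of mouse 129S1-No1, 3 of mouse C57B6-No1 and 1 of mouse 129S1-No2. The 7 eHep arrays came from the same 3 mice in the same numbers, and 1 array held primary hepatocytes of strain C57B6, isolated by collagenase perfusion. The study grew its expandable hepatocytes in expansion or differentiation medium. The labels do not spell out mHep, and it is read here as the differentiation medium, with eHep as the expansion medium. For 129S1-No2 the source name of the mHep array reads eHep, and its title set the group. Strain was 129S1 or C57B6, and the labels give no age, sex or genetic change. Nothing says whether arrays of 1 mouse came from separate cultures, so their spread may be technical.

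Complement is a cascade of plasma proteins, most of them secreted by hepatocytes, that marks surfaces and kills or flags what it marks. The classical pathway (C1r, C1s, C4, C2) and the lectin pathway (mannose-binding lectins, ficolin, collectin and the MASP proteases) both cleave C3, and the alternative pathway (factors B and D with properdin) amplifies that step. Cleaved C3 leads to cleavage of C5, whose product recruits C6, C7, C8 and C9 into the membrane attack complex, while soluble and membrane-bound regulators hold each step in check.

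Levels below are log2 processed signal minus the 75th percentile of that array, and differences are differences of such levels. Mouse means of arrays were compared in limma with mouse as a block. The threshold was an adjusted p of at most 0.05 with the Benjamini-Hochberg correction over all genes tested, and against the primary array also a log2 difference of at least 1. "Well above background" is the call of the scanner software. The share of probes so called was 48.8% to 61.9% on mHep arrays and 49.1% to 60.7% on eHep arrays, against 36.3% on the primary array. The lowest level called well above background lay between -5.47 and -3.73 on mHep arrays and between -5.92 and -3.76 on eHep arrays, against -2.12 on the primary array. Arrays of the same mouse and medium correlated at 0.939 to 0.987. Replicate 3 of C57B6-No1 was scanned with the primary array and both arrays of 129S1-No2, apart from all other arrays, and its eHep array was over 2 log2 units away from the mean of replicates 1 and 2 for 6 of 21 members tested, against 9.3% of all genes. In bulk samples fewer cells of a type and less RNA per cell cannot be told apart. The summed level of 8 hepatocyte markers was 163 to 1014 on mHep arrays and 5.50 to 18.5 on eHep arrays, against 6865 on the primary array. The summed level of 8 macrophage markers was 0.338 to 1.32 on mHep arrays and 0.190 to 3.85 on eHep arrays, against 20 on the primary array, where 6 of the 8 were well above background. Of these 8 macrophage markers, 4 (Clec4f, Cd5l, Adgre1 and Cd163) were well above background on no cultured array, while 2 (Csf1r and Cd68) were so on every cultured array. Cd68 and Cd163 were not well above background on the primary array.

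Sequences behind some of the differences are shown before the values. The 3 members whose mHep arrays all lay above all eHep arrays were Vtn, C4bp and C9, and the 250 bases before their RefSeq start (GRCm38.p6) are printed 5′ to 3′ on the strand of the gene. Capitals mark matches on either strand to the motifs searched. A half-site of the hepatocyte factor HNF1 was searched as GTTAAT and a C/EBP site as TTGCNNAA. A STAT site was searched as TTCNNNGAA and the TATA box as TATAAA. An NF-kB site and an interferon response element, both of fixed letters with open positions, were searched as well.

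Vtn promoter, chr11:78498870-78499119, plus strand: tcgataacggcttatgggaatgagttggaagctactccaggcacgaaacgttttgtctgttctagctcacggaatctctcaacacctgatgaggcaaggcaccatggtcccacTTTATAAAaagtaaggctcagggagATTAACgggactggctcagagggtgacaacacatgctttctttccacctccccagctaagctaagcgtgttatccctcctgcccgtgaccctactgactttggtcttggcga

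C4bp promoter, chr1:130661619-130661868, minus strand: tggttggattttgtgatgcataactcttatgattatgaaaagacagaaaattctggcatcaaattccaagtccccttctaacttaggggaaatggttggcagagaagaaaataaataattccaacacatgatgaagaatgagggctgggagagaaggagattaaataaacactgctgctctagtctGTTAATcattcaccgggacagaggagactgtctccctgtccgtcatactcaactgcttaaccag

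C9 promoter, chr15:6445096-6445345, plus strand: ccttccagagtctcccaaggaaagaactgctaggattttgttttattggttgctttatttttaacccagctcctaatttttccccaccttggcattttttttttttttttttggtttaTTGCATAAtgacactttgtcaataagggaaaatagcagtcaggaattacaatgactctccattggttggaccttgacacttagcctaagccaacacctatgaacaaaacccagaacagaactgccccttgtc

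The Vtn stretch holds the HNF1 letters on the other strand, starting 112 bases before the start, and TATA box letters at 137 and 135, which overlap. The C4bp stretch holds the HNF1 letters 64 bases before the start, and that of C9 the C/EBP letters at 132, while the stretch of C8g holds none of the motifs. A stretch was found for 24 of the 31 members. HNF1 letters stood in 8 of these 24 (33.3%), among them Hc, C8a and C8b, against 6.52% of all 27025 stretches of the same length. C/EBP letters stood in 3 (12.5%, against 9.55% of all), STAT letters in 4 (16.7%, against 7.18%), NF-kB sites in 7 (29.2%, against 15.7%), interferon elements in 2 (8.33%, against 3.04%) and TATA box letters in 4 (16.7%, against 13% of all). A match is a description of the letters and not a measured binding site. Below are 4 of the array probes that the results turn on, as the scanner files give them. Those of Vtn and C8g cover more genome than their own length, so each crosses a gap such as an intron, the C4b probe is listed in the files under the near-identical C4a as well, and the Masp1 probe is 1 of a pair that moved apart from the probe used for the gene.

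Vtn probe A_51_P109840: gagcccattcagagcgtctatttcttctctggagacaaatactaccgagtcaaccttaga

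C8g probe A_52_P370225: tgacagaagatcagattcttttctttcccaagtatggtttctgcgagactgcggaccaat

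C4b probe A_51_P428708: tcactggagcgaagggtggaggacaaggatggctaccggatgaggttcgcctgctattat

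Masp1 probe A_52_P216226: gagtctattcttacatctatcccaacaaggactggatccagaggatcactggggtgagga

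The Vtn probe lies at chr11:78315393-78315665 on the plus strand of mm9, the build of the files, and that of C8g at chr2:25354440-25354569 on the minus strand. The C4b probe lies at chr17:34866361-34866420 and the Masp1 probe at chr16:23452460-23452519, both on the minus strand.

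Primary hepatocytes carried signal for most of the system. Of the 31 members, 16 were well above background on all 7 mHep arrays and 14 on all 7 eHep arrays, against 25 on the primary array. Over all named genes these shares were 45.1% in mHep and 44% in eHep, against 39.1% in primary cells, where the members stood at 51.6%, 45.2% and 80.6% in the same order. The 4 classical members were above background on every array of the series, and the 6 lectin members were all above background in primary cells but only Mbl2 and Masp1 on all cultured arrays. In the terminal arm 6 of 7 members were above background in primary cells, while C8g alone reached that on all mHep arrays and none did on all eHep arrays. C7, C3ar1 and C5ar1 were well above background on no array, Cfd on 1 eHep array only, and Cd46 on 1 mHep and 1 eHep array. C3ar1 and C5ar1 encode the receptors of the C3a and C5a peptides, Cfd encodes factor D, and Cd46 a membrane cofactor whose expression in mice is known mainly from testis.

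**Figure D1:**
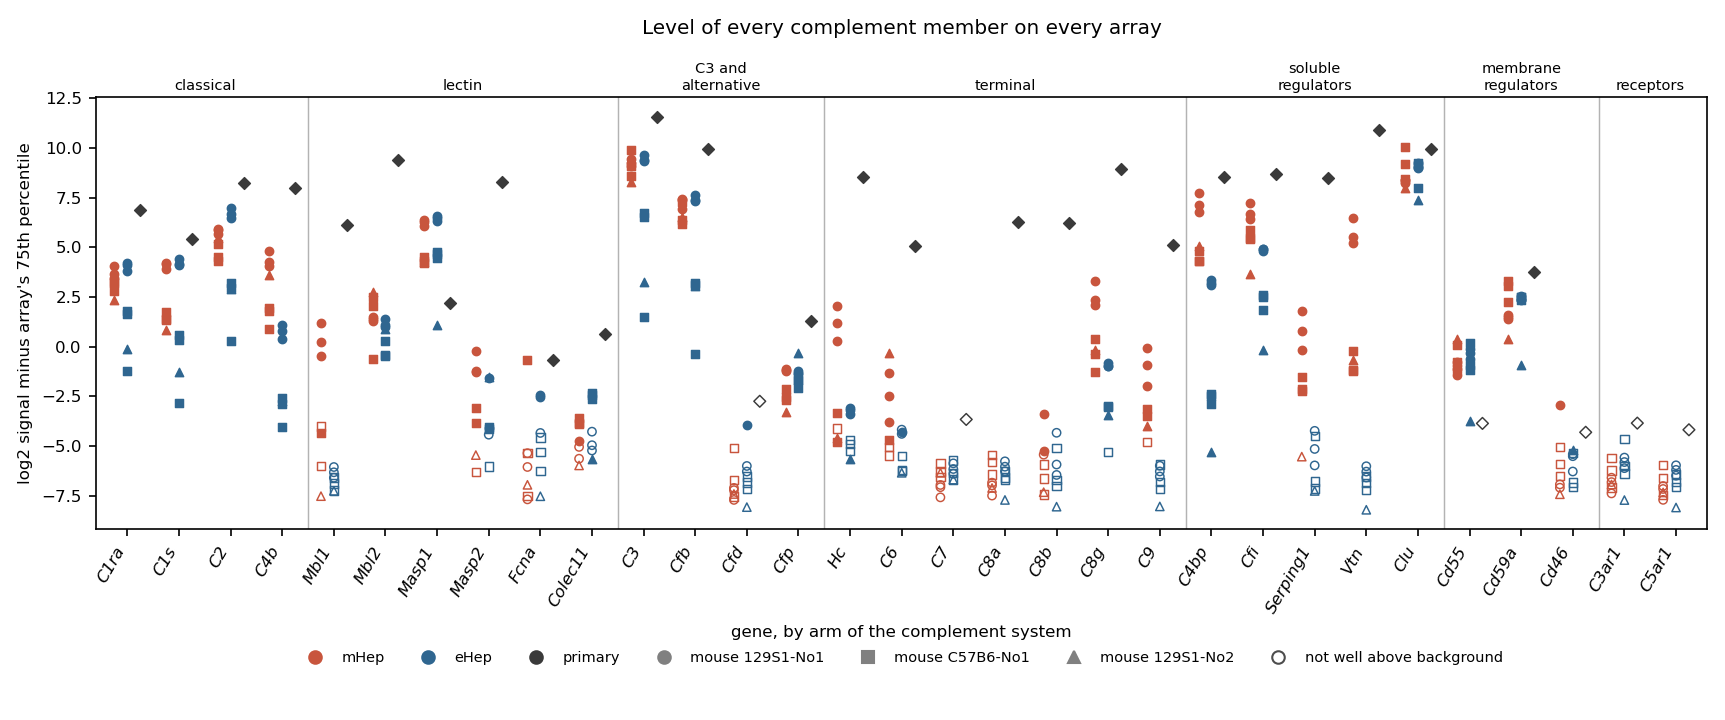
Level of each of the 31 members on every array, as log2 signal minus the 75th percentile of the array (y axis), by gene and arm (x axis); red is mHep, blue eHep and black primary, symbols give the mouse, and open symbols are not well above background. Terminal members sit between 5.06 and 8.96 in primary cells except C7, while C8a is open on all cultured arrays.

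In differentiation medium 6 members rose and no member fell. Of 21 members tested between mHep and eHep, those that rose were Vtn, C4bp, C4b, C9, C8g and Cfi, against 1.38% of 14596 genes higher and 0.452% lower (1.83% either way). They encode 3 soluble regulators, a classical component and 2 terminal components. Counted by arm, 3 of 5 soluble regulators, 2 of 4 terminal members tested and 1 of 4 classical members passed, while none of 3 lectin members tested, 3 of C3 and the alternative pathway and 2 membrane regulators did. The median log2 difference of the 21 was 2.10 and 19 were positive, against a median of -0.095 and 44% positive over all genes. C6, C9, Serping1 and Vtn entered this test through mHep alone and Colec11 through eHep alone, so these were bound to differ in that direction and the median is a description. The summed hepatocyte markers moved the same way between these groups, and their part in the members' change was not tested. With quantile normalization or the values deposited by the authors 1 of the 6 passed (C8g), with the 75th percentile taken over probes detected on all arrays 2 passed (C4b and C8g), and without mouse as a block none passed in limma, with 6 members at an unadjusted p under 0.05.

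**Figure D2:**
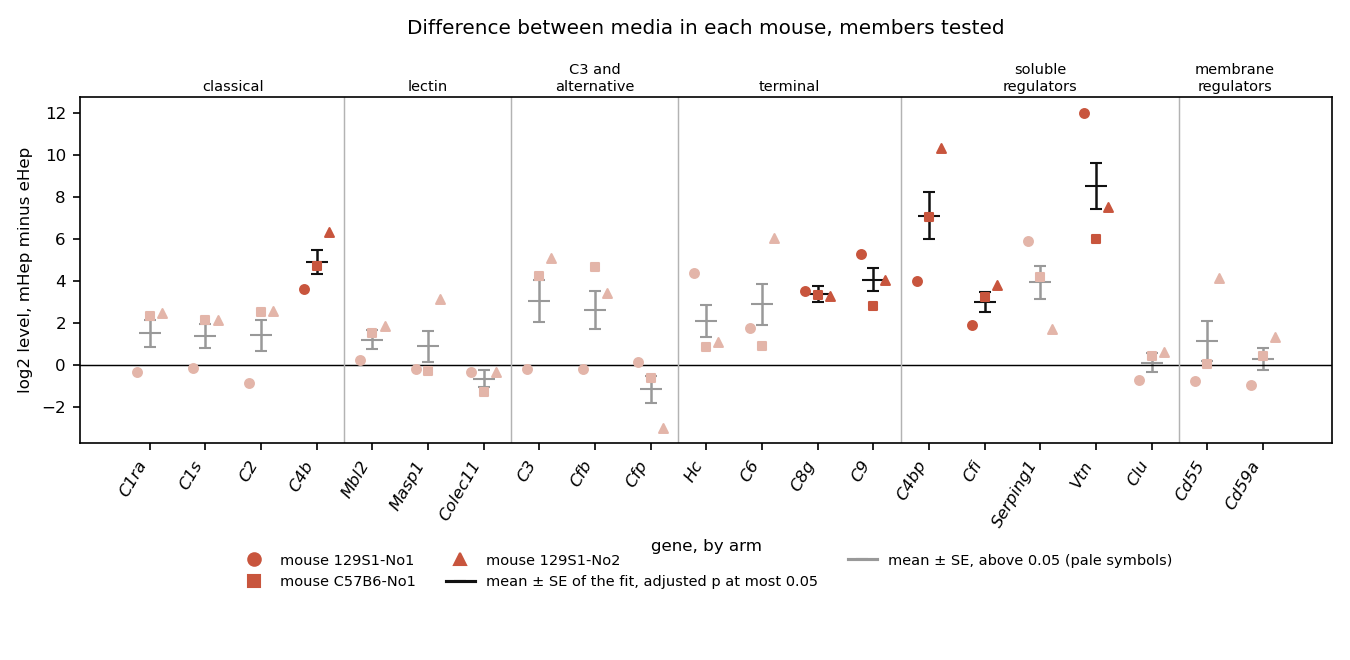
Log2 difference, mHep minus eHep, for the 21 members tested (y axis) by gene and arm (x axis); symbols are the 3 mice, bars the mean ± SE of the fit, and dark colours mark an adjusted p of at most 0.05. Vtn reaches 12.03 in 129S1-No1 and C8g lies between 3.27 and 3.51 in all mice, while C3, by the probe used, and Cfb are below 0 in 129S1-No1.

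Among the soluble regulators, Vtn encodes vitronectin, a plasma and matrix glycoprotein that binds the forming membrane attack complex and keeps it off membranes. Its level on the 7 mHep arrays was -1.24 at the lowest, -0.21 at the median and 6.45 at the highest, against -8.22, -6.59 and -6.03 on the 7 eHep arrays. All mHep arrays lay above all eHep arrays, and on no eHep array was the probe well above background. The mouse means were 1.40 ± 3.75 in mHep and -7.13 ± 0.98 in eHep (SD, n = 3 mice), a rise of at least 75.8-fold against the background limit of the eHep arrays (adjusted p = 0.0277). By mouse the difference was 6.0 for C57B6-No1, 7.55 for 129S1-No2 and 12.03 for 129S1-No1. On the primary array Vtn stood at 10.87, above every cultured array.

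C4bp encodes a chain of the C4b-binding protein, a cofactor for the breakdown of C4b. It reached 4.30, 5.04 and 7.74 (lowest, median and highest) on the mHep arrays, against -5.29, -2.39 and 3.36 on the eHep arrays. Here too the groups did not overlap, which holds for 3 members against 2.75% of the genes tested. For Vtn and C9, unlike C4bp, the filter partly set this, as they entered the test through mHep alone. The log2 difference of C4bp was 7.12 ± 1.12 (SE, adjusted p = 0.0435), made of 7.06 for C57B6-No1, 10.33 for 129S1-No2 and 3.98 for 129S1-No1. The 3 eHep arrays of 129S1-No1 lay between 3.11 and 3.36 and all other eHep arrays below -2. Primary cells stood at 8.52, and the mHep arrays of 129S1-No1 came within 2 log2 units of it, at 6.77 to 7.74.

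Cfi encodes factor I, the protease that cuts C3b and C4b with such cofactors. Its levels were 3.63, 5.85 and 7.23 on the mHep arrays, against -0.18, 2.57 and 4.92 on the eHep arrays, where only the mHep array of 129S1-No2 fell within the eHep range. The difference was 2.99 ± 0.49 (adjusted p = 0.0486), with 3.25 for C57B6-No1, 3.81 for 129S1-No2 and 1.91 for 129S1-No1. This call ended without C57B6-No1 (2.86, adjusted p = 0.0545) and with later-scan arrays only (2.4, adjusted p = 0.0566).

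The remaining soluble regulators did not pass. Serping1, the C1 inhibitor that stops C1r, C1s and the MASPs, read -5.54, -1.51 and 1.78 on mHep arrays, against -7.27, -5.98 and -4.24 on eHep arrays. It was well above background on 6 mHep arrays and on no eHep array, and the mHep array of 129S1-No2 was the one below it. Its mean was at least 6.07-fold higher in mHep against the background limit (adjusted p = 0.081), with -2.24 ± 3.18 in mHep and -6.18 ± 1.07 in eHep (SD, n = 3 mice), and differences of 4.17 for C57B6-No1, 1.73 for 129S1-No2 and 5.92 for 129S1-No1. Clu, or clusterin, a chaperone that binds the terminal complex, was bright throughout, at 7.99 to 10.04 on mHep arrays and 7.38 to 9.24 on eHep arrays, against 9.92 in primary cells. Its difference of 0.10 ± 0.44 between the media was smaller than its standard error.

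In the classical arm C4b encodes the C4 chain that the C1s protease cuts, and it had the largest difference. Its levels were 0.86, 3.62 and 4.8 on the mHep arrays, against -4.06, -2.60 and 1.11 on the eHep arrays. Of the 7 mHep arrays 6 lay above every eHep array. The difference was 4.91 ± 0.59 (adjusted p = 0.0213), with 4.73 for C57B6-No1, 6.36 for 129S1-No2 and 3.63 for 129S1-No1, but signal of C4a and C4b transcripts cannot be told apart by this probe. C1ra, C1s and C2, the proteases of the pathway, differed by 1.38 to 1.5 with adjusted p of 0.34 to 0.457. C1ra read 2.35, 3.23 and 4.06 on mHep arrays, against -1.23, 1.80 and 4.21 on eHep arrays, and C1s read 0.84, 1.74 and 4.22 on mHep arrays, against -2.82, 0.56 and 4.4 on eHep arrays. The eHep arrays spread more widely than the mHep arrays for both. All 3 proteases had the same split by mouse, with differences of 2.13 to 2.57 in C57B6-No1 and 129S1-No2 and of -0.88 to -0.13 in 129S1-No1. In eHep the mean of C2 was 2.14 for C57B6-No1, 2.9 for 129S1-No2 and 6.69 for 129S1-No1.

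C3 and factor B, the bulk components of the amplification step, showed that split most widely. C3 stood at 8.30, 9.09 and 9.87 on the mHep arrays, against 1.51, 6.75 and 9.65 on the eHep arrays. The 3 eHep arrays of 129S1-No1 lay at 9.34 to 9.65, within the mHep range, and the other 4 below it. Replicates 1 and 2 of C57B6-No1 read 6.54 and 6.75 in eHep, while replicate 3, from the earlier scan, read 1.51. The log2 difference of C3 was 3.04 ± 1.02 (adjusted p = 0.243), with 4.25 for C57B6-No1, 5.07 for 129S1-No2 and -0.22 for 129S1-No1. The second C3 probe, A_52_P133594, differed by 4.06 (adjusted p = 0.0967), with 5.39 for C57B6-No1, 5.38 for 129S1-No2 and 1.42 for 129S1-No1, so the sign in 129S1-No1 rests on the probe. In the earlier scan alone the C3 difference by the probe used was 6.08 (adjusted p = 4.11e-05). That scan holds 2 mice with 1 array per medium each, and no array of 129S1-No1. In the later scan, which holds none of 129S1-No2, the difference by the same probe was 1.31 (adjusted p = 0.417). Cfb, which encodes factor B, read 6.18, 6.90 and 7.42 on mHep arrays, against -0.36, 3.20 and 7.61 on eHep arrays, and its difference was 2.62 ± 0.92 (adjusted p = 0.264). As for C3, the eHep arrays of 129S1-No1 were the high ones. Cfp, or properdin, the stabiliser of the alternative convertase, read -3.31, -2.12 and -1.15 on mHep arrays, against -2.09, -1.37 and -0.31 on eHep arrays, and 1.30 in primary cells. Its difference of -1.17 ± 0.66 (adjusted p = 0.475) was below 0, unlike those of C3 and Cfb.

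In the terminal arm 2 members rose. C8g encodes the gamma chain of C8, a lipocalin. It read -1.30, 0.39 and 3.28 on mHep arrays, against -5.31, -3.0 and -0.83 on eHep arrays. Of the mHep arrays 6 were above every eHep array. Its difference of 3.38 ± 0.37 (adjusted p = 0.018) was the most even of the 6, with 3.35 for C57B6-No1, 3.27 for 129S1-No2 and 3.51 for 129S1-No1. C9, the subunit that polymerises into the pore, read -4.8, -3.14 and -0.07 on mHep arrays, against -8.05, -6.54 and -5.93 on eHep arrays, and the groups did not overlap. It was well above background on 6 mHep arrays and no eHep array, so the rise of its means (-2.93 ± 1.68 in mHep and -6.99 ± 0.94 in eHep, SD, n = 3 mice) is at least 3.78-fold (adjusted p = 0.0305). With dim readings raised to the background limit C9 differed by 2.04 (adjusted p = 0.109), and with normexp background correction C9 and Vtn no longer passed, at 1.37 (adjusted p = 0.171) and 4.46 (adjusted p = 0.115).

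Hc, which encodes complement C5, and C6 differed by 2.10 ± 0.75 and 2.89 ± 0.99 (adjusted p = 0.277 and 0.255). For Hc the difference was 0.86 for C57B6-No1 and 1.07 for 129S1-No2, against 4.39 for 129S1-No1. C6 read -5.49, -3.82 and -0.32 on mHep arrays, against -6.35, -5.49 and -4.18 on eHep arrays, and its highest mHep array was that of 129S1-No2, where the difference was 6.04. C8a, the chain of C8 that enters the membrane, was well above background on no cultured array, and its partner chain C8b on 2 mHep arrays, both of 129S1-No1. C7, which anchors the growing complex, stayed between -7.59 and -5.73 in culture and at -3.67 in primary cells, and no array had it well above background.

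Lectin members did not pass between the media. Mbl2, a mannose-binding lectin, was the largest of those tested and read -0.62, 1.46 and 2.74 on mHep arrays, against -0.47, 0.88 and 1.39 on eHep arrays, which overlap (1.2 ± 0.47, adjusted p = 0.312). Colec11, a collectin, differed by -0.65 ± 0.41 (adjusted p = 0.525). Mbl1, Masp2 and Fcna, the other lectin, a MASP protease and a ficolin, were too dim in too many mice to be tested. Mbl1 was well above background on 4 mHep arrays, including all 3 of 129S1-No1 at -0.47 to 1.21, and on no eHep array, where it lay between -7.26 and -6.06. The membrane regulators tested were Cd55, which takes convertases apart, and Cd59a, which blocks C9, and they differed by 1.14 ± 0.95 and 0.26 ± 0.53 (adjusted p = 0.65 and 0.867). For Cd55 the mHep arrays lay at -1.42 to 0.40 and 6 of 7 eHep arrays at -1.18 to 0.19, with the eHep array of 129S1-No2 at -3.73.

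Of 5 members with more than 1 probe tested, Masp1 was the one whose probes differed in their call. The gene makes MASP proteases from alternative transcripts, and it has 4 probes on the array, which the files do not assign to a protease. Probe A_52_P247185, which stands for the gene here as the one with the highest mean signal, read 4.22, 4.49 and 6.38 on mHep arrays, against 1.1, 4.74 and 6.57 on eHep arrays, and differed by 0.89 (adjusted p = 0.663 when every probe was tested). Probe A_52_P216226, whose sequence is printed above, starts 16084 bases away from it, and A_51_P472879 starts 18935 bases away, both further along in the direction of transcription. A_52_P216226 read -3.08, -1.92 and -0.86 on mHep arrays, against -8.16, -6.57 and -4.32 on eHep arrays. It was well above background on all 7 mHep arrays and no eHep array. It entered the test through mHep alone, and its means (-1.94 ± 0.80 in mHep and -6.48 ± 1.91 in eHep, SD, n = 3 mice) put it at least 7.51-fold higher in mHep against the background limit (adjusted p = 0.035). A_51_P472879 read -0.42, 1.40 and 2.86 on mHep arrays, against -6.64, -3.71 and -1.67 on eHep arrays, without overlap, and differed by 5.66 ± 0.78 (adjusted p = 0.0348), with 4 of 7 eHep arrays well above background. It too entered the test through mHep alone, so its direction was set by the filter and 5.66 is no bound. The last probe, A_52_P54274, lies upstream and differed by -0.13 (adjusted p = 0.95). In every mouse the change of A_51_P472879 exceeded that of the probe used for the gene, by 4.98 for C57B6-No1, 4.90 for 129S1-No2 and 4.45 for 129S1-No1. Only in 129S1-No1 was A_51_P472879 well above background on all eHep arrays, so the gaps of the other mice are no bounds. An exact sign-flip permutation test over 3 mice cannot go below p = 0.25, so that gap was not tested further. Against the primary array at 2.18 the probe used was higher on 6 of 7 eHep arrays and all mHep arrays, while A_51_P472879 stood at 5.14 in primary cells, above all cultured arrays. Testing every probe in place of 1 per gene covered 22228 probes with 307 past the threshold, and at that level Cfi missed it (adjusted p = 0.0549).

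**Figure D3:**
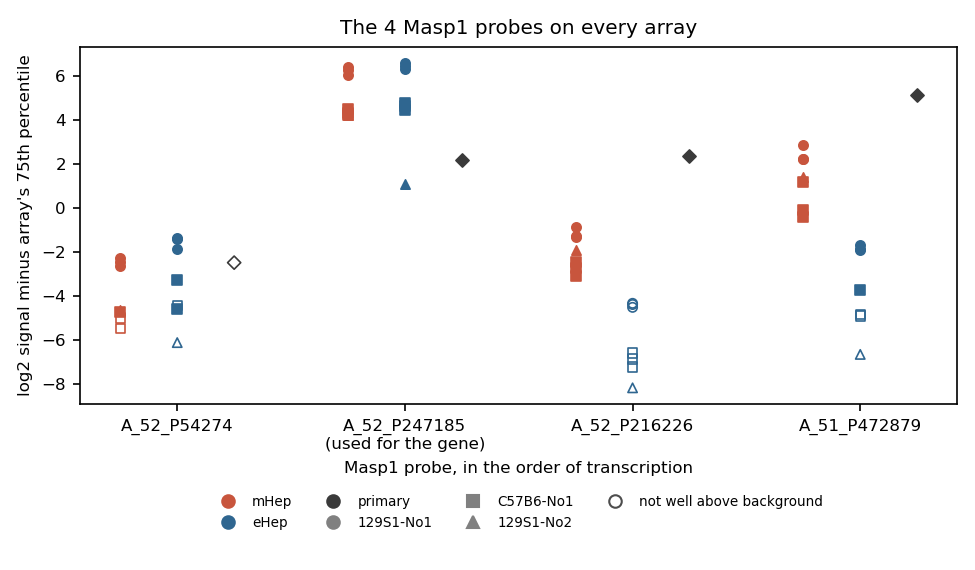
Level of the 4 Masp1 probes (x axis, in the order of transcription) on every array, as log2 signal minus the 75th percentile of the array (y axis); colours give the group, symbols the mouse, and open symbols are not well above background. The pair on the right, A_52_P216226 and A_51_P472879, separates mHep from eHep without overlap, while the probe used for the gene overlaps.

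Against primary hepatocytes the cultures were lower for every terminal member tested, for lectin genes and for the C1 inhibitor. Of 26 members tested, 10 were lower in mHep and none higher, against 5.97% of 15167 genes lower and 4.02% higher (9.99% either way). In eHep 12 were lower and none higher, against 9.4% of genes lower and 5.61% higher (15% either way). These comparisons share the primary array, which has no replicate and was taken to vary like the mouse means. Mbl1, Masp2, Fcna, C8a and C8b entered through the primary array alone and were bound to be lower in culture. C6, C9, Serping1 and Vtn did not meet the filter through eHep, nor Colec11 through mHep. Their directions in that medium were thus partly set by the filter as well. All 6 terminal members tested were lower in both media: Hc, C6, C8a, C8b, C8g and C9. So were Mbl2, Masp2 and Serping1, which makes 9 members, 90% of those lower in mHep and 75% of those lower in eHep. Colec11 passed in mHep only and C4b, Mbl1 and Vtn in eHep only, which does not show that the media differ. The test between media is given above for Colec11, C4b and Vtn, and Mbl1 was not tested there.

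The sizes were large in the terminal arm. Hc stood at -4.81, -3.35 and 2.05 on mHep arrays and at -5.67, -4.70 and -3.08 on eHep arrays, against 8.56 in primary cells. The log2 difference was -11.07 ± 2.22 in mHep (adjusted p = 0.0282) and -13.17 ± 2.22 in eHep (adjusted p = 0.0114). C8a in primary cells was at 6.27, and both media lay below background, so primary cells were at least 2373-fold above mHep (adjusted p = 0.00191) and at least 2223-fold above eHep (adjusted p = 0.00132). C8g differed by -8.30 ± 1.51 in mHep (adjusted p = 0.0207) and by -11.68 ± 1.51 in eHep (adjusted p = 0.0054). C8b, at 6.20 in primary cells, and C9, at 5.13, had no eHep array well above background, and primary cells exceeded eHep at least 2119-fold for C8b (adjusted p = 0.00272) and at least 1008-fold for C9 (adjusted p = 0.00325). C6 differed by -7.71 ± 1.73 in mHep (adjusted p = 0.039). In eHep 1 of 7 arrays was well above background for C6, and primary cells exceeded eHep at least 963-fold (adjusted p = 0.0101). C8a, C8b, C8g, C6, C9 and Hc thus lay below primary cells on every cultured array.

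Some regulators and lectin genes were also far below primary cells. Serping1 stood at 8.51 in primary cells, at least 10435-fold above eHep (adjusted p = 0.00748), and differed by -10.75 ± 2.17 in mHep (adjusted p = 0.0287). Vtn, at -9.48 ± 2.49 in mHep (adjusted p = 0.0622), was at least 54115-fold higher in primary cells than in eHep (adjusted p = 0.00634). Mbl2 differed by -7.56 ± 0.83 in mHep and -8.76 ± 0.83 in eHep (adjusted p = 0.00405 and 0.00242). Masp2, the protease that cuts C4 and C2 in the lectin pathway, stood at 8.30 in primary cells and differed by -11.90 ± 1.87 in mHep (adjusted p = 0.0119) and by -11.52 ± 1.87 in eHep (adjusted p = 0.0101). Mbl1, at 6.14 in primary cells, was at least 2029-fold above eHep (adjusted p = 0.0201), and in mHep it differed by -10.14 ± 2.58 (adjusted p = 0.0568).

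Against primary cells the classical proteases and C3 did not pass. The classical members C1ra, C1s and C2 differed by -3.82 to -2.94 in mHep and by -5.32 to -4.34 in eHep, with no adjusted p under 0.05. C3, at 11.57 in primary cells, differed by -2.66 ± 2.12 in mHep (adjusted p = 0.45) and by -5.70 ± 2.12 in eHep (adjusted p = 0.123). Cd55 stood above its primary reading, which was not well above background, at least 3.21-fold in mHep and at least 1.46-fold in eHep, which did not pass (adjusted p = 0.164 and 0.304). Leaving out C57B6-No1 left 1 member lower in mHep, while the share of all genes passing went from 9.99% to 0.673%. The median of all genes was -0.34 for mHep and -0.19 for eHep against primary cells, but 0.23 and 0.32 after quantile normalization. The medians of the 26 members were -5.05 in mHep and -7.55 in eHep, and -4.18 and -6.05 after quantile normalization. The mHep array that shared a slide with the primary array differed from it by -13.36 for Hc, -10.26 for C8g and -9.99 for Mbl2, with no replicate. The summed level of 7 endothelial markers was 0.132 to 0.5 on mHep arrays and 0.105 to 0.544 on eHep arrays, against 15.7 on the primary array. Biliary markers (5 genes) summed to 149 to 849 on mHep arrays and 268 to 618 on eHep arrays, against 5.29 on the primary array, and mesothelial markers (4 genes) to 8.69 to 292 on mHep arrays and 77.4 to 380 on eHep arrays, against 0.204. Of the mesothelial markers only Msln was well above background on every cultured array. Wt1 was so on no array, and Lrrn4 on no mHep array and not on the primary array. The part of other cells in the differences from primary cells was not tested.

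**Figure D4:**
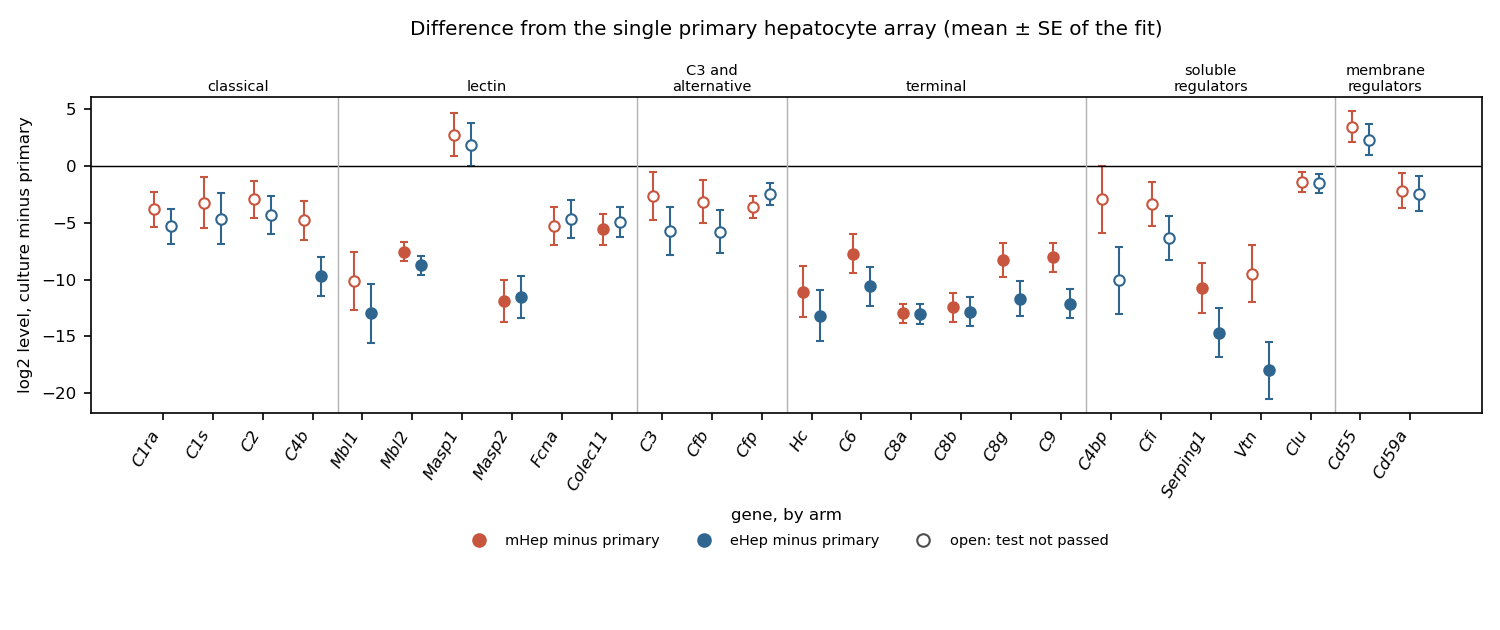
Log2 difference from the primary array (y axis, mean ± SE of the fit) for the 26 members tested, by gene and arm (x axis); red is mHep and blue eHep, and filled symbols passed the test. Terminal members and Mbl2 are filled in both media, whereas C3, Cfb and the classical proteases are open, and Masp1 and Cd55 are above 0.

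The 2 mice with 3 arrays per medium differed in how their complement genes changed. Of 23 members tested in the 12 arrays of C57B6-No1 and 129S1-No1, 8 had a different change, against 16.6% of 15742 genes. In 5 of them the change was more positive in C57B6-No1 (10.3% of genes) and in 3 more negative (6.29% of genes). There is 1 mouse of each strain here, so mouse and strain cannot be told apart, and p-values measure the spread between arrays of a mouse. The second 129S1 mouse, 129S1-No2, has 1 array per medium and was not in this test. Its changes were 2.57 for C2, 3.44 for Cfb, 10.33 for C4bp, 3.81 for Cfi and 1.32 for Cd59a. They were 1.07 for Hc, 7.55 for Vtn and -0.27 for Mbl1, which was dim there in both media. For each of these genes the change lay nearer that of C57B6-No1 than that of 129S1-No1. In 129S1-No1 all mHep arrays and all eHep arrays also sat on different slides, so slide and medium cannot be told apart within that mouse.

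Of the 23 members 14 were well above background on all arrays of both mice in both media, and the others entered through some groups only. Mbl1, Masp2, C6 and C9 entered through mHep of 129S1-No1 alone, Hc through 129S1-No1 alone, Colec11 through C57B6-No1 alone, and Serping1 and Vtn through mHep alone, so the directions of these are partly set by the filter. Under a stricter filter, which kept 17 members, 6 had a different change, against 17.1% of all genes. Hc and Mbl1 were not among the members tested there. Marker sums differed between the mice as well. On mHep arrays the hepatocyte markers summed to 163 to 264 in C57B6-No1, against 741 to 1014 in 129S1-No1, and the mesothelial markers to 147 to 292 in C57B6-No1, against 8.69 to 22.5 in 129S1-No1. On eHep arrays the mesothelial markers summed to 232 to 366 in C57B6-No1, against 313 to 380 in 129S1-No1. Of the mesothelial markers only Msln was well above background on every cultured array, and Wt1 was so on none. The summed neutrophil markers (3 genes, of which Camp was well above background on no array) were 92.3 to 172 on mHep arrays and 0.127 to 0.187 on eHep arrays of C57B6-No1, against 4.60 to 7.83 on mHep arrays and 6.83 to 10.4 on eHep arrays of 129S1-No1. Their part in the members' changes was not tested.

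C2, Cfb, C4bp, Cfi and Cd59a changed more positively in C57B6-No1. Cfb was 7.29, 6.38 and 6.18 on the mHep arrays and 3.08, 3.20 and -0.36 on the eHep arrays of C57B6-No1, and in 129S1-No1 it was 7.42, 6.90 and 7.37 in mHep and 7.33, 7.39 and 7.61 in eHep. The mHep arrays of both mice were alike while the eHep arrays of C57B6-No1 were lower than all other arrays of these mice. Its change was 4.86 ± 1.09 more positive in C57B6-No1 (adjusted p = 0.0136), and 3.91 without the earlier-scan replicate 3 (adjusted p = 0.000155). C2 was 5.18, 4.33 and 4.48 in mHep and 2.97, 3.18 and 0.29 in eHep in C57B6-No1, against 5.87, 5.65 and 5.91 in mHep and 6.66, 6.46 and 6.95 in eHep in 129S1-No1. Its eHep arrays thus lay below its mHep arrays in C57B6-No1 and above them in 129S1-No1, and the changes differed by 3.40 ± 0.88 (adjusted p = 0.0251).

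C4bp was 4.30, 4.81 and 4.32 in mHep and -2.49, -2.39 and -2.87 in eHep in C57B6-No1, against 7.74, 6.77 and 7.13 in mHep and 3.22, 3.36 and 3.11 in eHep in 129S1-No1. It rose in both mice, by 3.08 ± 0.39 more in C57B6-No1 (adjusted p = 0.000614), a gap that was 0.50 with the mean of both probes of the gene (adjusted p = 0.393). Cfi was 5.39, 5.44 and 5.85 in mHep and 2.48, 2.57 and 1.86 in eHep in C57B6-No1, against 7.23, 6.44 and 6.68 in mHep and 4.89, 4.92 and 4.81 in eHep in 129S1-No1. It was higher in mHep in both mice. Cd59a was 3.32, 3.05 and 2.25 in mHep and 2.51, 2.50 and 2.34 in eHep in C57B6-No1, against 1.49, 1.58 and 1.40 in mHep and 2.37, 2.54 and 2.41 in eHep in 129S1-No1. The gaps were 1.34 ± 0.38 for Cfi (adjusted p = 0.0355) and 1.37 ± 0.36 for Cd59a (adjusted p = 0.028), and they missed the threshold under 14 and 12 of 23 alternatives, while that of C2 missed it under 6.

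Vtn, Hc and Mbl1 changed more positively in 129S1-No1. Vtn was -0.21, -1.24 and -1.18 in mHep and -6.87, -6.54 and -7.21 in eHep in C57B6-No1, against 6.45, 5.23 and 5.49 in mHep and -6.30, -6.03 and -6.59 in eHep in 129S1-No1. The eHep arrays of both mice were not well above background and their mHep arrays stood apart. The gap of the fitted changes was -6.03 ± 0.53 (adjusted p = 8.54e-05), between -6.88 and -5.56 over the alternatives. Hc was -4.12, -3.35 and -4.81 in mHep and -4.89, -4.70 and -5.26 in eHep in C57B6-No1, against 2.05, 0.26 and 1.19 in mHep and -3.08, -3.39 and -3.20 in eHep in 129S1-No1. Mbl1 was -4.02, -4.35 and -6.02 in mHep and -6.89, -6.59 and -7.25 in eHep in C57B6-No1, against 1.21, -0.47 and 0.22 in mHep and -6.33, -6.06 and -6.60 in eHep in 129S1-No1. For both genes the mHep arrays of 129S1-No1 were the highest. The gaps were -3.53 ± 0.64 for Hc (adjusted p = 0.00494) and -4.55 ± 0.74 for Mbl1 (adjusted p = 0.00283), and with slide as a block that of Hc missed the threshold (adjusted p = 0.0738). Where a group is not well above background, as Vtn and Mbl1 in eHep, the fitted change is no bound.

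**Figure D5:**
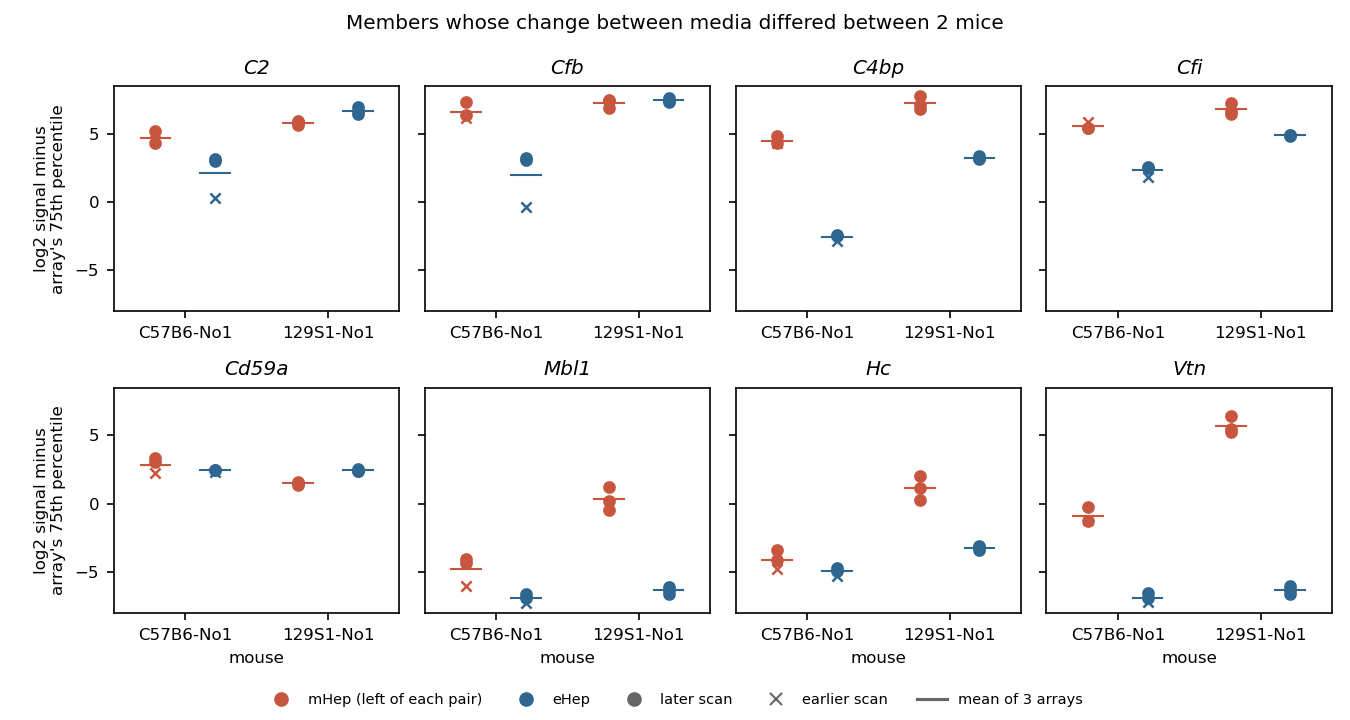
Levels (y axis, log2 signal minus the 75th percentile of the array) of the 8 members whose change differed between C57B6-No1 and 129S1-No1 (x axis); red is mHep, blue eHep, circles the later scan, crosses the earlier scan and lines the mean of 3 arrays. For Cfb and C2 the eHep points of C57B6-No1 are the low ones, with replicate 3 lowest, and for Vtn, Hc and Mbl1 the mHep points of 129S1-No1 are the high ones.

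Within 129S1-No1 alone 10 members rose and 1 (Cd59a) fell, against 17.3% and 27.2% of genes, and within C57B6-No1 alone 13 rose and 2 (Colec11 and Cfp) fell, against 11.8% and 13.4% of genes. Of the 10, Mbl1, C6, C9, Serping1 and Vtn entered through mHep alone. Of the 13, Mbl1, C9, Serping1 and Vtn did so too, Mbl1 and C9 through mHep of 129S1-No1 only. The directions of these are partly set by the filter. Averaged over both media, 18 members were lower and 2 (Colec11 and Cd59a) higher in C57B6-No1 than in 129S1-No1, against 17.8% and 17.1% of genes (34.9% either way). Under the stricter filter 13 of 17 were lower and 1 higher, against 33.5% of all genes either way. C4bp differed most, by -4.27 ± 0.19 (adjusted p = 6.35e-08), followed by C1s at -3.74 ± 0.49 (adjusted p = 0.000157). With slide as a block 12 members passed, as did 22.1% of all genes, and C3 (0.82, adjusted p = 0.0939) and C1ra (0.08, adjusted p = 0.886) changed sign.

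Apcs and Crp, further genes of the system, rose in differentiation medium. Of 28 further complement genes listed, 27 were on the array and 15 were tested between the media. Of the 15, 2 rose and none fell, against 1.38% of all genes higher and 0.452% lower, and the median difference was 0.68. Apcs, which encodes serum amyloid P, a pentraxin, read 0.05, 0.95 and 2.86 on mHep arrays, against -8.26, -4.84 and -2.97 on eHep arrays, without overlap, and rose by 6.76 ± 0.67 (adjusted p = 0.0124). Crp, which encodes C-reactive protein, another pentraxin, read -2.69, -1.13 and 0.22 on mHep arrays, against -6.41, -5.70 and -1.18 on eHep arrays, which overlap, and rose by 3.43 ± 0.49 (adjusted p = 0.0331). The lowest eHep readings of both genes lay under -5.92, the lowest level called well above background on any eHep array. Their directions may thus be partly set by the filter, and the fitted rises are no bounds. Against primary cells 5 of 18 were lower in mHep and 8 in eHep, against 5.97% and 9.4% of all genes. Of 16 tested between the 2 mice 4 had a different change, against 16.6% of all genes. Between the 2 mice the change of Susd4 and Cd59b was more positive in C57B6-No1, by 3.64 ± 0.43 (adjusted p = 0.000444) for Susd4 and by 2.24 ± 0.69 (adjusted p = 0.0497) for Cd59b. The change of C4a and Cpn2 was more negative there, by -2.62 ± 0.62 (adjusted p = 0.0175) for C4a and by -3.62 ± 0.54 (adjusted p = 0.00164) for Cpn2.

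The differences between the media were also looked at within scan and slide. In the earlier scan, with replicate 3 of C57B6-No1 and 129S1-No2, the 6 members that rose differed by 3.64 (C8g) to 8.76 (C4bp), and in the later scan by 2.4 (Cfi) to 9.0 (Vtn). The slide that held an mHep and an eHep array of the same mouse, C57B6-No1, gave 6.03 for Vtn, 7.19 for C4bp, 5.87 for C4b, 3.64 for C9, 4.01 for C8g and 3.98 for Cfi, with no replicate. With slide as a block among the 14 arrays, which takes arrays of a mouse as separate samples, 7 members passed, as did 20.6% of all genes.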

How the data were processed

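Per the file headers, the Cy3 scans were quantified in Agilent Feature Extraction, in its version 10.7.1.1 for the earlier and 10.7.3.1 for the later scan, with probe positions in mm9. The deposited processed signal is an intensity that per the file headers had background subtracted and no scaling across arrays. A value table, also deposited, holds log2 values, whose scaling is not given in the sources used here. It was used as an alternative.

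Spots of a probe were averaged without outlier spots, giving 41174 probes and 27343 genes. Probes were named by RefSeq accession (27668), symbol (5589), older symbol (471) or as in the file (7446). The probe with the highest mean signal stood for a gene. From log2 signal the 75th percentile of the array was subtracted. No spot was saturated. The number of arrays limits the precision.

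The media were compared for genes that every array of 2 or 3 mice, in either medium, had well above background, primary cells also for genes above it on their array, and the mice for genes above it on all 3 arrays of a mouse and medium. In limma 3.58.1 (R 4.3.3) the terms were medium and a block for mouse on 6 means, the 3 groups on 7 values, or mouse and medium with their interaction on 12 arrays. The mouse paired the arrays per the labels. Deviations of the same mouse in both media correlated at 0.397, 0.563 and 0.539, those of different mice at 0.0115 at most. They were taken from the mean of the 3 mice, which lowers the values of different mice, and mouse went partly with scan. These correlations thus do not test the pairing. The fits between media, of change and level between mice, and of mHep against primary cells were run on simulated data. The fit of eHep against primary cells and those within 1 mouse were not. Outcomes of these runs are not given here. Alternatives changed scaling, background, filter, probe choice, blocks, scan and the mice or arrays included. "At least" folds set readings of the dim group under the lowest signal well above background of their array to it. Values on every array are given for members past the threshold between media, the largest of each arm and those whose change differed between mice. Members, lists and tests were chosen with earlier results of these data known, and the analyses by scan and by probe after their values were seen. Tables were read with data.table (1.17.8) and pandas (2.3.3), and Python 3.11.15 drew the figures with matplotlib 3.10.9. Some further complement genes are not reported here.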

Additional observations from a re-analysis of the deposited data

Results flagged for a closer look

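In 5 of 62 sets of 7 arrays (31 members in each medium) the highest or lowest array stood far from the others by Dixon's test, where chance gives about 1 in 20 for independent values. These arrays come from 3 mice, 1 of them with a single array per medium, so that rate does not hold here. The eHep array of 129S1-No2 was the low one for 3 members: Masp1 at 1.1, against 4.46 to 6.57 on the other eHep arrays, Cd55 at -3.73, against -1.18 to 0.19, and Cd59a at -0.93, against 2.34 to 2.54. It is the only eHep array of that mouse. Replicate 1 of C57B6-No1 in mHep was the high one for Fcna, at -0.69 against -7.69 to -5.37, where it alone was well above background, and for Cfd, at -5.10 against -7.72 to -6.72, where no mHep array was.

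The change between media differed between C57B6-No1 and 129S1-No1 for 8 members by limma's interaction test. The change in C57B6-No1 minus that in 129S1-No1 was 4.86 for Cfb, 3.40 for C2, 3.08 for C4bp, 1.37 for Cd59a, 1.34 for Cfi, -3.53 for Hc, -4.55 for Mbl1 and -6.03 for Vtn, with 1 mouse of each strain.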

How the results depend on the processing

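Alternatives moved counts of members more than directions. Between mHep and eHep 6 members passed, against 1 with quantile normalization and 1 with the deposited table, 2 with the percentile over detected probes, 0 without the replicate block by mouse (6 at an unadjusted p under 0.05), 11 with 14 arrays as samples (34.4% of all genes), 13 in the earlier scan (10.4%), and 7 to 12 leaving out 1 mouse (12 without 129S1-No1, with 5.69% of all genes). As reported, 1.83% of all genes passed. All genes higher made up 75.3% of calls, against 85.5% with quantile normalization, 91.4% with detected probes and 38.5% with 14 arrays. Against primary cells 10 were lower in mHep, against 18 with no filter (32.3% of all genes, against 9.99%) and 16 in the earlier scan (26.3%). Leaving out 1 mouse gave 1 to 13 lower in mHep (1 without C57B6-No1, with 0.673% of all genes). In eHep 12 were lower, against 20 with no filter (31.1%, against 15%) and 21 in the earlier scan (36.2%). Leaving out 1 mouse gave 8 to 19 lower in eHep (19 without 129S1-No1, with 15.7% of all genes). Calls higher than primary cells made up 40.2% in mHep and 37.4% in eHep, against 61.4% and 56.7% with quantile normalization. The change differed between the mice for 8, against 13 with array number as a replicate block (27.3% of all genes, against 16.6%), 15 in the later scan (36.4%) and 5 to 11 leaving out 1 array (5 without eHep replicate 1, eHep replicate 3 or mHep replicate 3 of 129S1-No1). Array numbers do not pair cultures per the labels. Levels differed for 20, against 12 with slide as a block (22.1% of all genes, against 34.9%) and 19 to 20 leaving out 1 array; the array-number block could not be fitted there. Level differences of C1ra and C3 reversed with slide as a block, to 0.0757 and 0.8249. The cause was not tested. Another 69 counts moved by at most 1.5 times. Of 2058 member values, 100 lost and 122 gained the threshold. Another 48, from 9 members, changed sign without passing the threshold in either fit. Readings near background limit C9, Serping1, Mbl1, C6 and eHep Vtn.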
